A study of Mus musculus with 5 samples.

Results

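The caspases and death-signalling regulators examined here are 8 mouse genes, Fadd, Casp8, Cflar, Apaf1, Casp9, Casp2, Casp6 and Xiap, in natural killer T (NKT) cells of the thymus. They were taken as every non-control probe whose RefSeq transcript accession maps to one of these symbols, which gave 10 probes of 55681 on the array and 8 genes of 20022 with a named probe. Cflar had 3 probes and the other 7 genes had 1 each. NKT cells, a T-cell type with receptors for lipids on CD1d, came from IL15ko mice (genotype IL15-/-, 2 arrays), which lack the cytokine interleukin-15, and from wild-type mice (WT, 3 arrays), both on the C57BL/6 background. Each sample was a pool of 10 thymi, enriched for T cells and sorted as cells positive for CD3e and for a CD1d tetramer, and was hybridised to 1 Agilent 1-colour array. The labels give no age and do not state whether samples of a genotype were separate animal pools. The p-values therefore rest on the spread among samples that may be technical replicates.

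Caspases are proteases that are made as inactive precursors and take a cell apart once they are activated. In the death-receptor route, ligands such as Fas ligand gather the adaptor FADD and caspase-8 at the receptor, where c-FLIP, the product of Cflar and a relative of caspase-8 without protease activity, can hold caspase-8 back. In the mitochondrial route, which the Bcl-2 family controls, released cytochrome c makes APAF1 assemble into the apoptosome that activates caspase-9. Both routes lead to executioner caspases, and XIAP blocks caspase-9 and some of the executioners. IL-15 is known as a survival factor of NKT cells in the thymus.

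Signals are given as log2 units relative to the 75th percentile of bright probes on the same array, so that values near 0 lie at that percentile. A probe's brightness depends on its sequence, so levels are compared between arrays and not between genes. All 10 probes were well above the local background on all 5 arrays, except 1 Cflar probe on 1 array. The share of all probes well above background was 45.2% and 33.9% on IL15ko arrays 1 and 2 and 44.6%, 46.8% and 49.6% on WT arrays 1, 2 and 3, so IL15ko 2 was the dimmest array. The IL15ko pair differed with a robust SD over genes of 0.381 log2 units. For the WT pairs this SD was 0.170 for 1 and 2, the closest, 0.344 for 1 and 3 and 0.376 for 2 and 3. All 9 NKT and T-cell markers on the fixed list, Cd3e and Zbtb16 among them, were well above background on all 5 arrays. The double-positive thymocyte genes Rag1, Rag2, Ptcra, Cd8a and Cd8b1 were so on no array, while the sixth of that list, Dntt, was on all 5. Il15, the deleted gene, had no array on which its probe rose well above background, so it is no check of the labels.

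The adaptor, the protease and the inhibitor of the death-receptor complex are shown first by the DNA upstream of their genes, because these proteins act in 1 complex. Cflar and Casp8 also lie on the same chromosome. The 250 bases before an annotated start follow, from RefSeq on build GRCm38.p6. Capitals mark GGGCGG on either strand, the letters of a GC box.
Cflar (chr1:58711241-58711490, + strand): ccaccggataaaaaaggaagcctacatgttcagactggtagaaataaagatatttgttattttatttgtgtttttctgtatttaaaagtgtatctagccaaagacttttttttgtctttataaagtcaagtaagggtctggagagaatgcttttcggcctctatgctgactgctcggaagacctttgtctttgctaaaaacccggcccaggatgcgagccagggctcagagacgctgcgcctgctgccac
Casp8 (chr1:58802252-58802501, + strand): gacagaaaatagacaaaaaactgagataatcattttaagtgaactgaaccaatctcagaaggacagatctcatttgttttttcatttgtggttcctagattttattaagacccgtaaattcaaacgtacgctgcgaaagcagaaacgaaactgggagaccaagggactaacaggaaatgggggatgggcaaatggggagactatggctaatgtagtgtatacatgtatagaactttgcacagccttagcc
Fadd (chr7:144582442-144582691, - strand): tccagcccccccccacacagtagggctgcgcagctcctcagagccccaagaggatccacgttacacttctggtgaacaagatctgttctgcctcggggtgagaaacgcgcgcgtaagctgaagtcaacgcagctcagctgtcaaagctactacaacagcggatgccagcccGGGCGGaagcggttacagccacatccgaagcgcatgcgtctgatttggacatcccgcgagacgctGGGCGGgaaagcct
The Cflar and Casp8 windows held no GGGCGG, and 42.8% and 39.6% of their bases were G or C, below the median of 52.4% over all 32851 windows of this length. The Fadd window held 2 copies and was 60.4% G or C. Of all 10 windows of the 8 genes (Xiap has 3), 7 held GGGCGG, compared with 32.7% of all windows. None of the 10 held TTCNNNGAA, the letters that STAT5 binds downstream of IL-15, which 7.02% of all windows hold, or the NF-kappaB consensus, which 3.90% hold. No match says only that these letters are not in this window.

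Across the 8 genes, the difference between IL15ko and WT cells was small for 7 and was largest for Cflar, and none passed the test. Under limma with Benjamini-Hochberg adjustment over 11991 genes, 0 of the 8 were called higher and 0 lower at an adjusted p under 0.05, where 7.33% of all genes tested were called. At an unadjusted p under 0.05 the count was 1 of 8 (Cflar), compared with 27.5% of all genes. The 2 genotypes did not overlap in 2 of the 8 genes (Cflar and Casp2), compared with 47.2% of all genes. The median log2 difference of the 8 genes was -0.10 and that of all genes was 0.015, and the median absolute difference was 0.10 for the 8 genes and 0.31 for all genes. For the 7 genes other than Cflar, the 95% confidence intervals of the fold (IL15ko over WT) ran from 0.683 at the lowest bound to 1.498 at the highest. The folds within a gene's interval are not excluded by these 5 arrays, and these bounds are not a limit of detection.

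**Figure D1:**
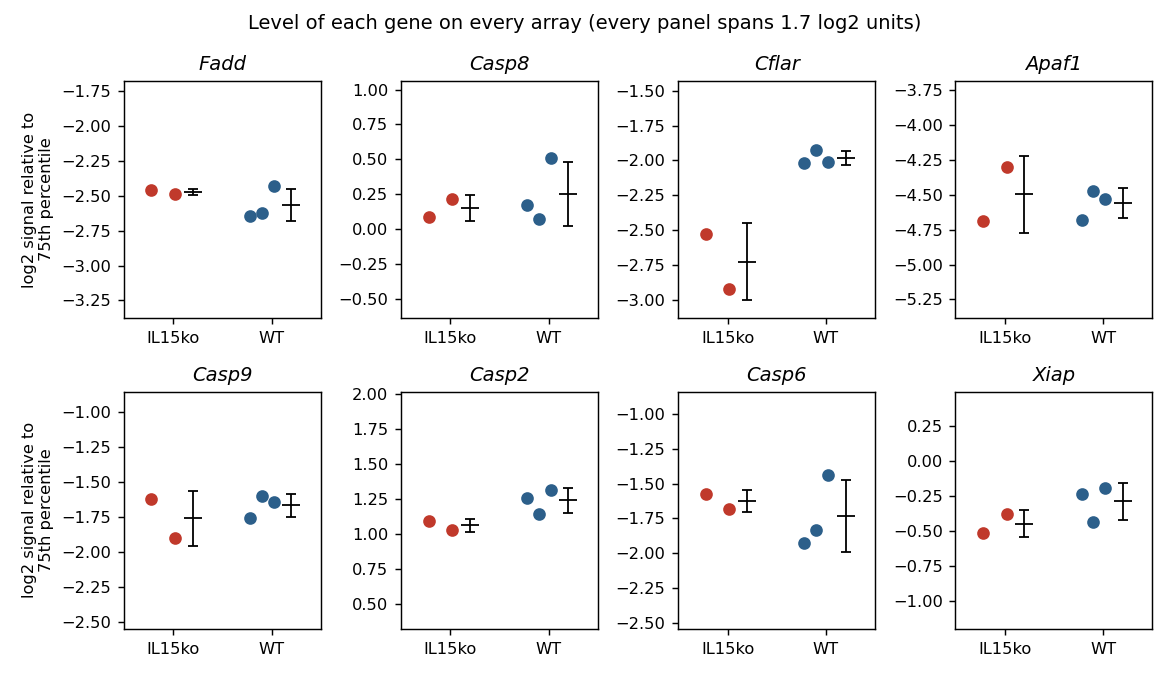
Log2 signal of the 8 genes (y axis, relative to the 75th percentile of the array) on each array, with IL15ko arrays in red at the left and WT arrays in blue at the right of each panel. Bars show the mean and SD of a genotype (n = 2 IL15ko, n = 3 WT). Both IL15ko points lie below all 3 WT points for Cflar, from -2.92 to -2.53 against -2.02 to -1.92, while the genotypes overlap for 6 of the other 7 genes.

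Fadd, the adaptor that links death receptors to caspase-8, had log2 values of -2.46 and -2.49 in IL15ko cells and of -2.64, -2.62 and -2.43 in WT cells. The IL15ko values lay between the highest and the lower WT values, so the genotypes overlapped. Its log2 difference (IL15ko minus WT) was 0.093 ± 0.13 (limma SE), a 1.07-fold ratio with a 95% interval of 0.845 to 1.35 (adjusted p = 0.676). Casp8, the protease activated in that complex, had log2 values of 0.083 and 0.22 in IL15ko cells and of 0.17, 0.072 and 0.51 in WT cells. WT 3 was the highest array and the others lay close together. The log2 difference of Casp8 was -0.10 ± 0.18 (0.932-fold, interval 0.683 to 1.27, adjusted p = 0.736), and without WT 3 it was 0.028, with the sign turned.

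Cflar, which encodes the inhibitor c-FLIP, had log2 values of -2.53 and -2.92 in IL15ko cells and of -2.02, -1.92 and -2.01 in WT cells by its brightest probe, A_52_P226929. The 3 WT arrays lay close together, both IL15ko arrays lay below them, and the dimmest array, IL15ko 2, was the lowest. The genotype means were -2.73 ± 0.28 in IL15ko cells (SD, n = 2) and -1.98 ± 0.052 in WT cells (SD, n = 3). The log2 difference was -0.74 ± 0.16 (limma SE), a level in IL15ko cells 0.598 times that in WT cells with a 95% interval of 0.450 to 0.795. It had an unadjusted p of 0.00529 and did not pass the test over all genes (limma adjusted p = 0.0596). The adjusted p was 0.0340 when only the 9761 genes well above background on all 5 arrays were tested and 0.0281 with a trended and robust variance prior, and it ranged from 0.0281 to 0.367 over 19 alternatives. The log2 difference was -0.94 without IL15ko 1, -0.55 without IL15ko 2 and -0.36 with a normexp background correction, so its size depended on the array kept and on the background correction. In pooled cells, fewer cells of one NKT type and less RNA per cell cannot be told apart. Markers of NKT subsets moved with genotype beside Cflar. The linear level of Tbx21, the gene of T-bet and a marker of NKT1 cells, was 1.65 and 2.06 times the 75th percentile on the IL15ko arrays and between 6.12 and 6.47 times on the WT arrays. That of Zbtb16, the gene of PLZF, which immature NKT cells and NKT2 cells carry at high levels, was 8.03 and 9.75 times on the IL15ko arrays and between 2.76 and 3.34 times on the WT arrays. Their part in the Cflar values was not tested.

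The other Cflar probes did not give the same picture. The probe A_55_P1983459, which the array assigns to the same RefSeq transcript as the brightest one (NM_207653), had log2 values of -4.33 and -6.61 in IL15ko cells and of -4.10, -4.05 and -3.56 in WT cells. It was not well above background on IL15ko 2, so its level in IL15ko cells was measured on 1 array, and the fitted log2 difference was -1.57 ± 0.67 (adjusted p over all named probes = 0.214, not called). The probe A_55_P1983468, assigned to another transcript of the gene (NM_009805), had log2 values of -2.45 and -2.34 in IL15ko cells and of -2.61, -2.52 and -2.78 in WT cells. Here both IL15ko arrays lay above all WT arrays, with a log2 difference of 0.24 ± 0.14 (1.18-fold, interval 0.919 to 1.53, adjusted p over all named probes = 0.337). On the probe level, 0 of the 10 probes were called, where 6.22% of the 15570 named probes tested were.

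**Figure D2:**
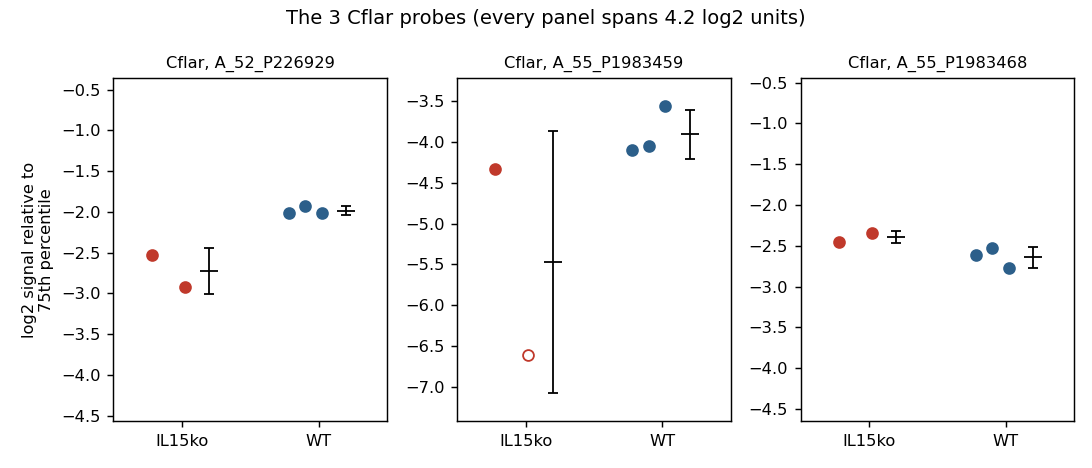
Log2 signal of the 3 Cflar probes (y axis, relative to the 75th percentile of the array), with IL15ko arrays in red at the left, WT arrays in blue at the right and bars for mean and SD (n = 2 and n = 3). The open circle, at -6.61 in the middle panel, was not well above background. IL15ko arrays lie below WT arrays in the left panel and above them in the right panel.

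The gap between the bright Cflar probes was measured within each array, so that the scaling of arrays drops out. The signal of A_52_P226929 minus that of A_55_P1983468 was -0.081 and -0.58 log2 units in IL15ko cells and 0.60, 0.60 and 0.77 in WT cells. The genotypes did not overlap and the mean gap differed by -0.99 (IL15ko minus WT). A two-sided exact permutation test gave p = 0.1, the smallest p that 3 arrays against 2 allow, for a comparison that was chosen after the values were seen. Where on the transcripts these probes bind was not analysed here.

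Neither apoptosome gene passed the test. Apaf1, the scaffold of the apoptosome, had log2 values of -4.69 and -4.30 in IL15ko cells and of -4.68, -4.48 and -4.53 in WT cells, with IL15ko 2 the highest and IL15ko 1 the lowest array. Its log2 difference was 0.065 ± 0.17 (1.05-fold, interval 0.776 to 1.41, adjusted p = 0.827), and -0.13 without IL15ko 2. Casp9, the initiator protease of the apoptosome, had log2 values of -1.62 and -1.90 in IL15ko cells and of -1.76, -1.60 and -1.64 in WT cells. The genotypes overlapped, and the log2 difference was -0.093 ± 0.15 (0.937-fold, interval 0.724 to 1.21, adjusted p = 0.707). Without IL15ko 2 it was 0.046.

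Casp2, a caspase activated in the PIDDosome complex, had log2 values of 1.09 and 1.03 in IL15ko cells and of 1.26, 1.14 and 1.32 in WT cells. Both IL15ko arrays lay just below the lowest WT array, with a log2 difference of -0.18 ± 0.13 (0.884-fold, interval 0.707 to 1.104, adjusted p = 0.408). Casp6, an executioner caspase that cleaves nuclear lamins, had log2 values of -1.57 and -1.68 in IL15ko cells and of -1.93, -1.84 and -1.44 in WT cells. Its WT values were the most spread of the 8 genes (SD 0.26, n = 3), and the log2 difference was 0.11 ± 0.19 (1.08-fold, interval 0.774 to 1.498, adjusted p = 0.738). Xiap, the inhibitor of caspase-9 and of some executioner caspases, had log2 values of -0.52 and -0.38 in IL15ko cells. In WT cells its values were -0.23, -0.44 and -0.19. The genotypes overlapped through IL15ko 2 and WT 2, and the log2 difference was -0.16 ± 0.14 (0.896-fold, interval 0.698 to 1.15, adjusted p = 0.504).

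**Figure D3:**
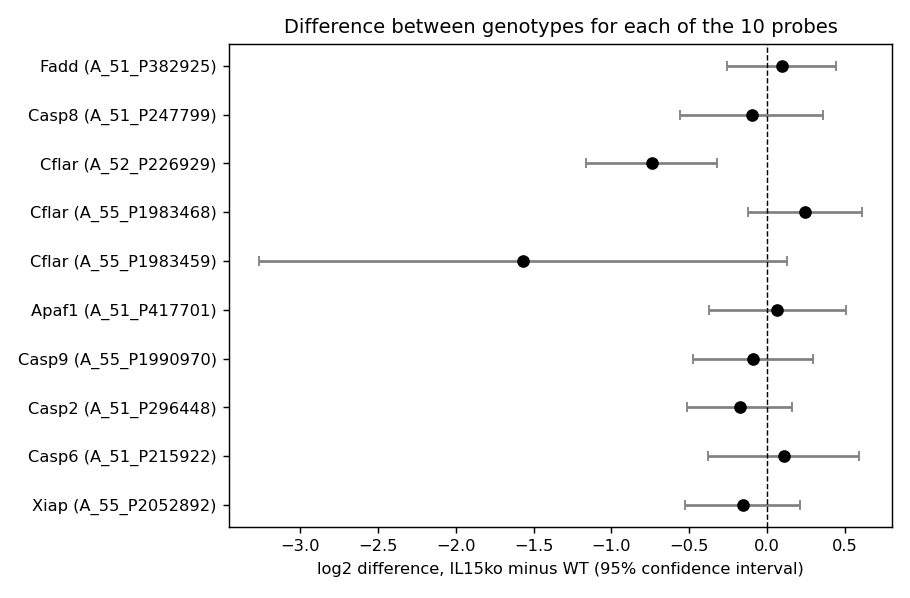
Log2 difference between IL15ko and WT cells (x axis, IL15ko minus WT) for each of the 10 probes (y axis), with 95% confidence intervals from limma over 2 IL15ko and 3 WT arrays. Only the interval of the Cflar probe A_52_P226929, from -1.16 to -0.32, leaves out 0.

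The arrays varied alike in several of these genes. WT 3 was the highest of the 5 arrays in 5 of the 8 genes, Fadd, Casp8, Casp2, Casp6 and Xiap. Cflar did not share this, since WT 3 lay between WT 1 and WT 2 there. The share of all genes in which WT 3 was highest was not counted, so the count is not read as a trait of these genes. The genes whose values over the 5 arrays, each centred on its own mean, lay nearest to those of Cflar were Atp2b1, a plasma membrane calcium pump gene (root mean square distance of 0.054 log2 units), and Ripor2 (0.059), out of 9470 genes well above background on all arrays. Their log2 differences were -0.71 for Atp2b1 (adjusted p = 0.0856) and -0.82 for Ripor2 (adjusted p = 0.0366). Because both were picked for values near those of Cflar on these 5 arrays, differences near that of Cflar follow from the choice. Atp2b1 was called in 2 of 19 alternatives and ranged from -0.95 without IL15ko 1 to -0.47 without IL15ko 2. Ripor2 was called in 8 of 19, and in none that left out an array, and its log2 difference was -0.25 (adjusted p = 0.348) with the mean of its probes.

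Since FADD and c-FLIP act on caspase-8, and XIAP and APAF1 on caspase-9, 4 pairs were compared within each array, where a change in the gap means that the genes of a pair changed unequally. The gap of Fadd minus Cflar was 0.074 and 0.43 log2 units in IL15ko cells and -0.63, -0.70 and -0.42 in WT cells, without overlap. It was larger by 0.83 in IL15ko cells (1.02 without IL15ko 1, 0.65 without IL15ko 2 and 0.62 with normexp). The exact two-sided permutation p was 0.1, the smallest possible, and the adjusted p was 0.4 over the 4 pairs. The log2 difference was -0.74 for Cflar and 0.093 for Fadd, so this gap mostly restates the Cflar values. The gap of Casp8 minus Cflar was 2.61 and 3.14 in IL15ko cells and 2.19, 2.00 and 2.52 in WT cells, a difference of 0.64 (exact permutation p = 0.2, adjusted p = 0.4). That difference was 0.90 without IL15ko 1, 0.38 without IL15ko 2 and 0.24 with normexp. With the Cflar probe A_55_P1983468 these differences were -0.15 for Fadd minus Cflar and -0.35 for Casp8 minus Cflar, so that their direction depended on the probe. The gaps of Casp9 minus Xiap and of Apaf1 minus Casp9 differed by 0.065 and 0.16 between IL15ko and WT cells (exact permutation p = 0.7 for both, adjusted p = 0.7). Both signs depended on the arrays kept. Casp9 minus Xiap differed by -0.14 without IL15ko 1, by 0.27 without IL15ko 2 and by -0.0076 without WT 1, and Apaf1 minus Casp9 by 0.49 without IL15ko 1 and by -0.18 without IL15ko 2.

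Of 94 other cell-death genes tested in 8 lists, 4 were called higher and 4 lower in IL15ko cells, where 3.75% and 3.58% of all genes were. The 8 called genes kept their direction in every alternative that gave a value, but many calls did not hold. The counts higher and lower were 0 and 0 without WT 1, 0 and 2 without WT 2, 2 and 4 without WT 3, 0 and 5 without IL15ko 1, 0 and 4 without IL15ko 2, and 0 and 4 with the replicate block. They were also 0 and 0 with normexp and 0 and 0 when dim probes were kept in the test, and 0 and 1 with WT 1 and 2 averaged. Higher counts came with genes well above background on all 5 arrays (9 and 6) and with the trended and robust prior (9 and 8). Of the 19 alternatives, Pidd1 and Phlda3 were called in 9 each, Bak1 in 10, Perp in 11, Fasl and Bcl2 in 14 each and Tnfsf10 in 15, and Naip2 was called in 15 of the 18 that gave it a value. Of the 5 other caspase genes tested, 0 were called. Of the 11 inhibitor-of-apoptosis genes and antagonists tested, 1 was called, and it was lower (median 0.10). This was Naip2, of a family that senses bacterial proteins, with log2 values of -5.03 and -4.92 in IL15ko cells and of -3.00, -2.93 and -2.84 in WT cells and a log2 difference of -2.05 ± 0.13 (adjusted p = 0.00591). The Naip2 probe was well above background on 4 of the 5 arrays and not on IL15ko 2, and its log2 difference was -1.33 in the authors' deposited table and -0.59 with normexp. Naip genes are related copies, and whether the Naip2 probe reads more than 1 of them was not tested. Birc5, which encodes survivin, had a log2 difference of 0.78 ± 0.32 (adjusted p = 0.19).

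Upstream of caspase-8, 2 of the 10 death receptor and ligand genes tested were called, both lower in IL15ko cells (median -0.16). They were the ligand genes Fasl, with log2 values of -1.996 and -1.14 in IL15ko cells and of 0.75, 0.64 and 0.67 in WT cells (log2 difference -2.26 ± 0.27, adjusted p = 0.0175), and Tnfsf10, the gene of TRAIL, with -1.81 and -1.84 in IL15ko cells and -0.31, -0.34 and -0.11 in WT cells (log2 difference -1.58 ± 0.14, adjusted p = 0.00917). Their receptor genes Fas and Tnfrsf10b had log2 differences of -0.075 (adjusted p = 0.728) and -0.18 (adjusted p = 0.563). Of the 21 receptor-proximal adaptor and kinase genes tested, 1 was called, and it was higher (median -0.041). This was Pidd1, whose product assembles the PIDDosome that activates caspase-2, with log2 values of -3.22 and -3.52 in IL15ko cells and of -4.16, -4.14 and -4.29 in WT cells (log2 difference 0.83 ± 0.15, adjusted p = 0.0393). Ripk3, a kinase gene of necroptosis, had a log2 difference of 0.63 ± 0.13 (adjusted p = 0.0504).

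Around the mitochondrial route, 0 of the 10 genes of cytochrome c and its partners were called (median 0.16), and Cycs, the gene of cytochrome c, had a log2 difference of -0.034 ± 0.17 (adjusted p = 0.911). Of the 14 Bcl-2 family genes tested, Bcl2, which blocks cytochrome c release, was called lower (log2 difference -2.12 ± 0.25, adjusted p = 0.0173), Bak1, a pore-forming member, was called higher (0.81 ± 0.12, adjusted p = 0.0232), and the median was -0.21. Of the 12 p53 targets and regulators tested, 2 were called, both higher (median 0.069). They were Perp, a membrane protein gene, with log2 values of -2.98 and -3.30 in IL15ko cells and of -4.25, -4.50 and -4.56 in WT cells (log2 difference 1.30 ± 0.17, adjusted p = 0.021), and Phlda3, an inhibitor of AKT signalling (0.90 ± 0.15, adjusted p = 0.0314). For Trp53, the gene of p53, the log2 difference was 1.30 ± 0.29 (adjusted p = 0.0636). Of the 11 caspase substrates and genes of DNA cleavage tested, 0 were called (median 0.019), and Lmna, a lamin gene, had the smallest p with a log2 difference of 0.76 ± 0.17 (adjusted p = 0.0646). For Dffa, the gene of the inhibitor of the caspase-activated DNase, singled out after its values were seen, the probes disagreed. The log2 difference was -0.051 (adjusted p over all named probes = 0.863) and 0.087 (0.805) by its brighter probes and -1.24 (0.0491, called lower) by A_51_P141190, which was not well above background on IL15ko 2. Of the list genes with more than 1 probe tested, the only other probe called was A_52_P510877 of Bcl2l1, the gene of Bcl-xL, at -1.998 (0.0453) and well above background on 4 arrays, where the brighter probe had -0.80 (0.0657, not called).

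**Figure D4:**
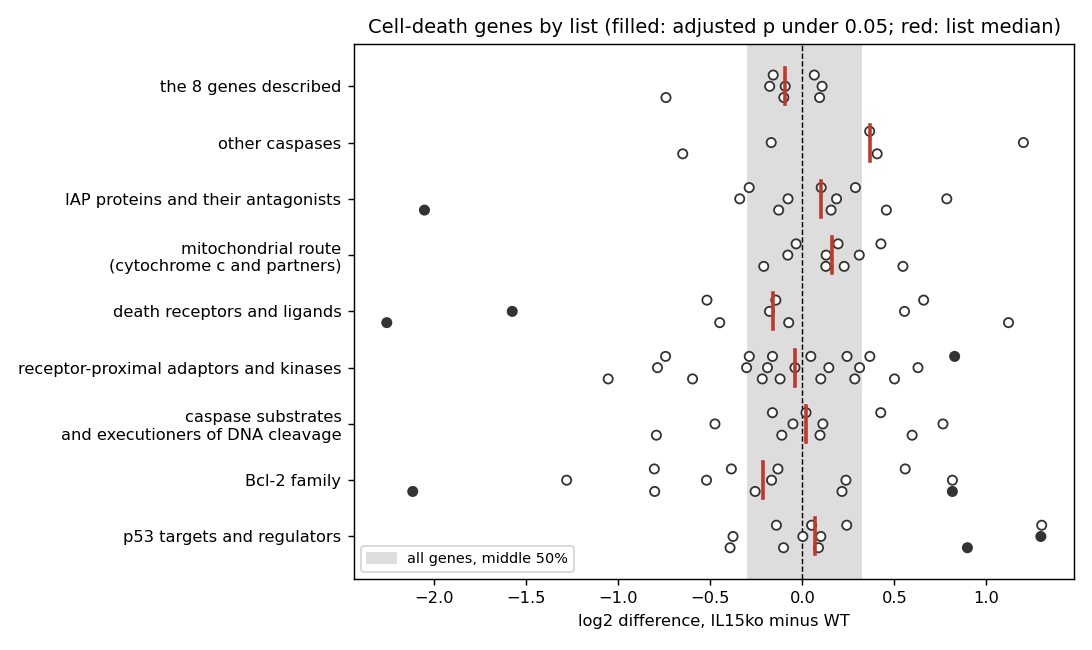
Log2 difference between IL15ko and WT cells (x axis, IL15ko minus WT) of the 8 genes described and of 94 genes in 8 other cell-death lists (y axis), with filled points for an adjusted p under 0.05, red lines for list medians and grey for the middle 50% of all genes (-0.29 to 0.32). Of these 8 genes, 7 lie in the grey band and Cflar lies left of it at -0.74.

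Markers of other cell types were set beside the lower Cflar values. The summed linear level of the 4 NK-cell genes on the list, nearly all of it Klrb1c, was 1.27 and 1.78 times the 75th percentile on the IL15ko arrays and between 4.82 and 5.28 times on the WT arrays. Of these 4 genes, the NK-defining Ncr1 was well above background on 0 arrays, and Klrb1c is also expressed by mature NKT cells. The summed level of the 7 myeloid genes was 4.94 and 11.2 on the IL15ko arrays and between 6.64 and 8.52 on the WT arrays, with Lyz2, Adgre1 and Itgax well above background on no array. Most of that sum on the IL15ko arrays was Itgam, at 4.40 and 10.5 times in IL15ko cells and between 3.69 and 5.10 times in WT cells. The myeloid genes Fcer1g (0.356 and 0.551 times in IL15ko cells, between 2.36 and 2.59 times in WT cells) and Csf1r (0.162 and 0.071 times in IL15ko cells, between 0.396 and 0.796 times in WT cells) lay the other way. The part of either list in the Cflar values was not tested.

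**Figure D5:**
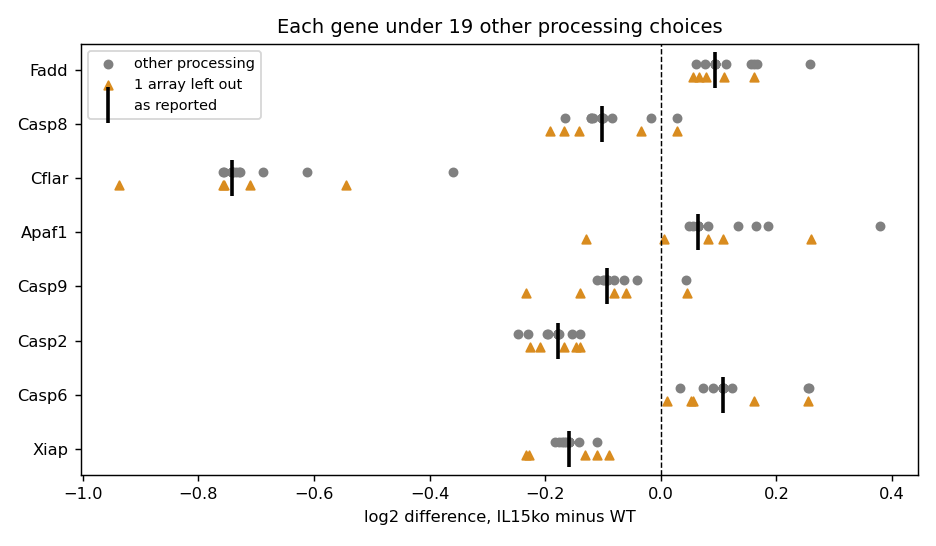
Log2 difference between IL15ko and WT cells (x axis, IL15ko minus WT) of each gene (y axis) as reported (black bar), under 14 other processing choices (grey circles) and with 1 array left out (orange triangles). Values are those of a gene's brightest probe or the mean of its probes. In these settings Cflar stays below 0, between -0.94 and -0.36, whereas Casp8, Casp9 and Apaf1 have values on both sides of 0. The Cflar probe A_55_P1983468, with a log2 difference of 0.24, is not shown.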

How the data were processed

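Per the file headers, the deposited arrays carry spot intensities on a linear scale from Agilent Feature Extraction 10.7.1.1, corrected for background and detrended on each array but not scaled across arrays. Limma is also in the submitters' processing notes, without a version. The authors' deposited value table of intensities served as an alternative. The headers name mm9 for the array design, and the files give no probe coordinates. All 5 arrays shared 1 slide, so slide was no batch to test.

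Control and outlier spots were left out, spots of a probe averaged, and log2 of the processed signal was taken minus the 75th percentile of 18519 probes well above background on every array. Accessions matched without versions to RefSeq symbols (GRCm38.p6) named 26425 of 55681 probes. The brightest probe stood for a gene, kept if well above background on at least 2 arrays (11991 genes). The main test was limma 3.58.1 in R 4.3.3 (lmFit, eBayes), with 3 residual and 2.28 prior degrees of freedom and Benjamini-Hochberg adjustment. A trial on simulated data used independent noise for each gene and array. It cannot show how effects shared by the genes of an array change the calls. The number of arrays limits the precision.

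The 8 genes, the lists, the tests and the naming rule were chosen with earlier results of these data known. The rule named every probe of the 8 genes, up to 4 genes of each list by smallest p with those needed for a count (some are not reported here), and the 2 genes nearest in pattern to the gene of smallest p. Cycs, Fas, Tnfrsf10b, Dffa, Bcl2l1 and the gap between Cflar probes were chosen with their values in view. The planned normexp setting used the spot median, since the files used here hold no spot mean.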

Additional observations from a re-analysis of the deposited data

How the results depend on the processing

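Of 152 values of the 8 genes under 19 alternatives, 145 kept their direction and their side of the threshold. Cflar was called lower with only genes well above background on all 5 arrays and with a trended and robust prior, which gave 1 of the 8 genes called in each. The sign turned for Casp8 without WT 3 and with the replicate block (log2 difference 0.028 in both), for Casp9 without IL15ko 2 (0.046) and with normexp (0.044), and for Apaf1 without IL15ko 2 (-0.13). It also turned for Cflar by the probe A_55_P1983468 (0.24), an alternative added after seeing the data. Among the other genes named, whose alternatives were also added then, it turned with normexp for Tnfrsf10b (0.16) and Dffa (0.18), for Dffa also without WT 2 (0.058), and for Cycs in the authors' deposited table (0.00048), with the replicate block and without WT 3 (0.011 in both) and without IL15ko 2 (0.17). The cause was not tested. With 1 array left out the values ran from -0.19 to 0.028 for Casp8, from -0.23 to 0.046 for Casp9 from -0.13 to 0.26 for Apaf1, from -0.24 to 0.17 for Cycs and from -0.14 to 0.058 for Dffa. With normexp the median of all genes was 0.22. The normexp values of Cflar (-0.36), Casp9 (0.044), Tnfrsf10b (0.16) and Dffa (0.18) are all to be read against that shift. With the replicate block the log2 difference of Cflar was -0.76 (adjusted p = 0.116). The labels name no shared animal or batch, so whether the replicate numbers pair samples is not known. The correlations of deviations for the pairs of number 1 and number 2 were -0.13 and 0.21. With only 2 IL15ko arrays, each WT array has equal and opposite correlations with them, so these values cannot decide it.

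The counts over all genes, 450 higher and 429 lower, were 0 and 1 with normexp (1959 genes at an unadjusted p under 0.05) and 0 and 3 without the filter on dim probes (2748 genes), both with limma. They were 138 and 241 with the replicate block, 817 and 692 with the trended and robust prior, and 33 and 63 with WT 1 and 2 averaged, and 710 were higher among genes well above background on all 5 arrays. Leaving out 1 array gave from 1 (without WT 1) to 373 (without WT 3) genes higher and from 8 (without WT 1) to 410 (without WT 3) lower. Where 1 IL15ko array remained, it was assumed to vary like the WT arrays. IL15ko 2 was the dimmest array, which limits the dim Cflar probe.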
